A study of Mus musculus with 9 samples.

Results

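The genes described here encode organic solute, amino acid and phosphate carriers of the mouse. They were taken by gene symbol as all rows of the Slc5, Slc6, Slc7, Slc13, Slc17, Slc22, Slc34 and Slco families, which gave 108 of the 24421 rows in each count table. Of these rows, 104 are carriers, 3 have symbols that end in os, for opposite strand (Slc13a2os, Slc6a19os and Slc7a6os), and 1 is a pseudogene (Slc22a13b-ps). Slc13a2os and Slc6a19os overlap their carriers on the other strand, and no overlap with a carrier was found for Slc7a6os. Counts of measured, tested or called rows below take in these 4. The families hold 13 rows for Slc5, 20 for Slc6, 16 for Slc7, 6 for Slc13, 9 for Slc17, 26 for Slc22, 3 for Slc34 and 15 for Slco. In all 9 libraries 6 rows had 0 counts, and 73 rows had 100 or more counts in at least 1 kidney library, against 26 in at least 1 muscle library.

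RNA sequencing covered 2 kidney and 7 muscle libraries of mice. The kidney pair is a Tumor mouse and a wild type (WT) mouse, both given PBS. The muscle libraries are a Tumor mouse given MDC, a Tumor mouse given PBS, a beta-arrestin knockout given DKK1, a beta-arrestin knockout given PBS, a WT mouse given DKK1 and 2 WT mice given PBS. Every group has 1 library except WT PBS muscle, with 2, and the labels do not say whether these came from separate animals. In the muscle fits, p-values therefore measure only the spread between these 2 libraries. In the fit of kidney against muscle, p-values measure the spread among the libraries of each tissue. The labels name neither the tumour, the strain, the age, the muscle nor the deleted beta-arrestin gene, and they give MDC only by these letters. DKK1 is a secreted Wnt inhibitor, and beta-arrestins bind activated receptors and help bring about their uptake.

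Plasma is filtered in the kidney, and the epithelium of the proximal tubule takes back what the body keeps and secretes what it discards. Slc5 carriers bring back glucose, inositol and short organic acids with sodium, Slc6 and Slc7 carriers bring back amino acids, Slc13 carriers sulfate and citrate, and Slc34 carriers phosphate. Slc22, Slc17 and Slco carriers move organic anions and cations, urate and many drugs, and several of them face the blood side of the cell. In muscle, the best known members are the creatine carrier Slc6a8, the taurine carrier Slc6a6 and the carnitine carrier Slc22a5.

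Total counts were 44421797 in Tumor kidney and 42480786 in WT kidney, and ran from 21358854 to 32607835 in muscle. Counts were scaled by TMM within a tissue and are given as CPM. Levels are compared between genes as the authors' RPKM, which divides by gene length. Kidney and muscle are compared by RPKM, by edgeR log2 differences, by ratios of pooled scaled counts and by counts in percent of the WT kidney count. A count of 0 allows up to 3 counts, or 0.0674 to 0.138 CPM. The names of the tables carry set letters: A for both kidney libraries, B for both Tumor muscle libraries and WT PBS muscle 1, and C for the other 4 muscle libraries. In the libraries labelled knockout, Arrb1 was at 28.8 CPM with DKK1 and 20.5 CPM with PBS, against 17.02 and 20.7 CPM in WT PBS muscle. The value with DKK1 lay above both WT values and the value with PBS between them. Arrb2 was at 8.14 CPM with DKK1 and 9.60 CPM with PBS in those libraries, against 7.47 and 8.01 CPM in WT PBS muscle.

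WT PBS muscle 1, and to a lesser degree Tumor PBS muscle, held more low counts of kidney transcripts than the other muscle libraries. Over the 47 carrier rows with 1000 or more counts in each kidney library, the median count in WT PBS muscle 1 was 0.205% of that in WT kidney, against 0.0392% in WT PBS muscle 2. Tumor PBS muscle, also in set B, had a median of 0.113%, and the other muscle libraries had medians from 0.0287% to 0.0470%. Markers of proximal tubule and loop of Henle had a median of 0.181% in WT PBS muscle 1, 0.104% in Tumor PBS muscle and 0.0212% in WT PBS muscle 2. Kap, a kidney androgen-regulated gene, had 1123 counts in WT PBS muscle 1 and 90 in WT PBS muscle 2, beside 1007300 in WT kidney. The source of these counts was not tested, and the comparisons with WT PBS muscle below are given with and without WT PBS muscle 1.

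**Figure D1:**
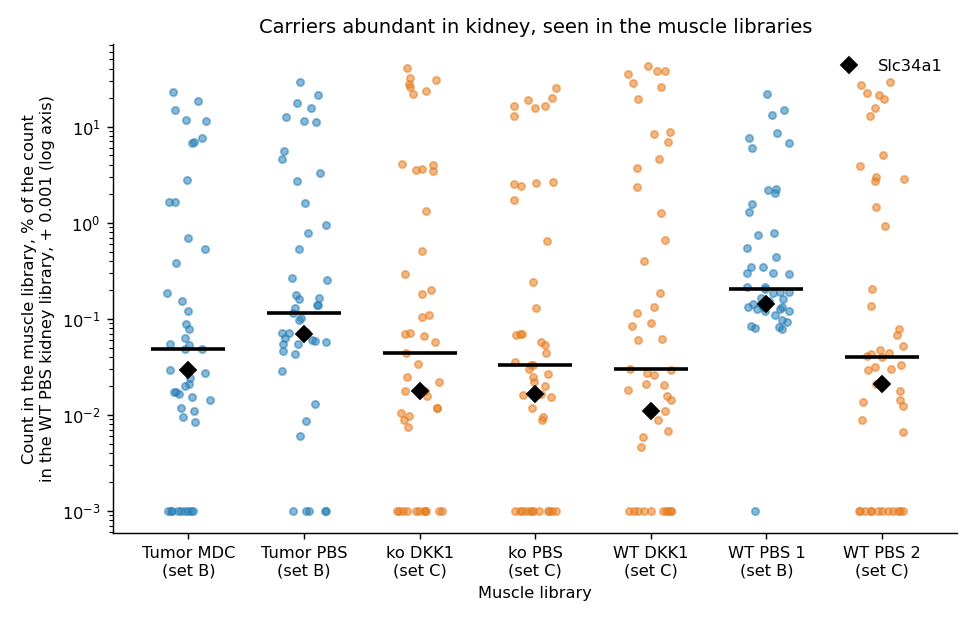
Each point is 1 of the 47 carrier rows with 1000 or more counts in both kidney libraries, plotted as its count in a muscle library in percent of its count in WT PBS kidney, plus 0.001, on a log axis; bars are medians, diamonds are Slc34a1, and colours give set B (blue) and set C (orange). The medians lie at 0.205% in WT PBS 1, at 0.113% in Tumor PBS and between 0.0287% and 0.0470% in the others.

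Slc34a1 (mm10 chromosome 13, 55398187 to 55415592), the main phosphate carrier of the proximal tubule brush border, had the highest level per length of all carriers in each kidney library. It stood at 857 RPKM in Tumor kidney and 1145 RPKM in WT kidney. The next levels in Tumor kidney were those of the sulfate carrier Slc13a1, at 581 RPKM, and the monocarboxylate carrier Slc5a12, at 352 RPKM. In WT kidney the urate carrier Slc22a12, at 873 RPKM, and the acidic amino acid and cystine carrier Slc7a13, at 577 RPKM, came next. Summed over all 108 rows, the level was 4876 RPKM in Tumor kidney and 6640 RPKM in WT kidney.

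The Tumor kidney library held 12 carriers at 2-fold or more higher CPM and 12 at 2-fold or more lower CPM than the WT kidney library, of 73 rows with 100 or more counts in either. That is 16.4% in each direction, where all 12897 genes with such counts had 5.8% higher and 4.05% lower. The median log2 ratio of the carriers was 0.01, as was that of all genes. With 1 library per group these differences have no replicate check, and the 95% intervals given below (exact conditional binomial) cover counting error only. In tissue RNA, fewer cells of a type and less RNA per cell cannot be told apart.

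**Figure D2:**
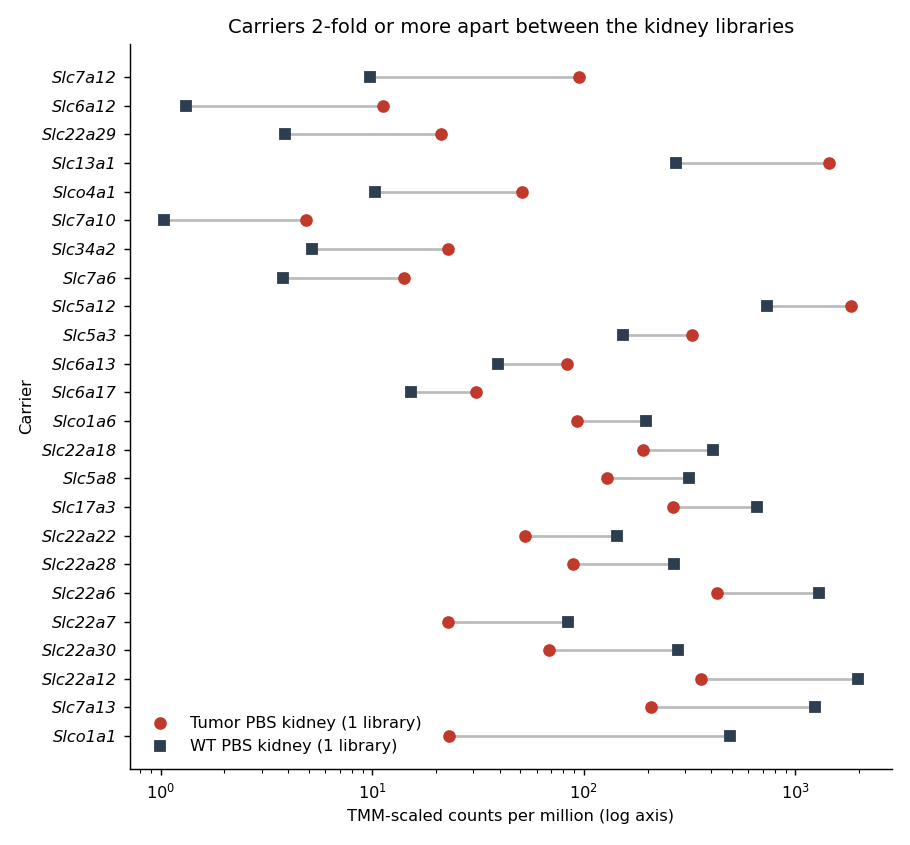
TMM-scaled CPM on a log axis of the 24 carriers that were 2-fold or more apart with 100 or more counts, in Tumor PBS kidney (red circles) and WT PBS kidney (dark squares), 1 library each. From top to bottom the carriers run from Slc7a12, at 94.7 against 9.79 CPM, to Slco1a1, at 23.1 against 488 CPM.

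Organic anion and cation carriers of the Slc22 family held most of the lower values: 7 of 22 measured members were 2-fold or more lower, 1 was higher, and the family median was a log2 ratio of -0.52. Their summed level was 1088 RPKM in Tumor kidney and 2554 RPKM in WT kidney, the largest absolute difference of the 8 families. As a ratio the gap was slightly wider in the Slco family, at 104 RPKM in Tumor kidney and 247 RPKM in WT kidney. Slc22a12 (URAT1, chromosome 19, 6535845 to 6543032), which takes urate back from the tubule fluid, had 15924 counts (358 CPM) in Tumor kidney and 83550 counts (1972 CPM) in WT kidney. It was 5.51-fold lower in Tumor kidney (95% interval 5.42 to 5.61). Slc22a6 (OAT1), the basolateral carrier that takes organic anions such as para-aminohippurate from blood, was at 425 CPM in Tumor kidney and 1298 CPM in WT kidney, a log2 ratio of -1.61. Its chromosome 19 neighbour Slc22a8 (OAT3), with a similar task, was at 242 CPM in Tumor kidney and 423 CPM in WT kidney (-0.80) and stayed within 2-fold. Both thus pointed the same way, one past and one short of the limit.

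Slc22a7 (OAT2) was at 22.9 CPM in Tumor kidney and 84.2 CPM in WT kidney (log2 ratio -1.88). Slc22a22, a prostaglandin carrier of the mouse kidney, was at 52.8 CPM in Tumor kidney and 144 CPM in WT kidney (-1.45). Slc22a18, an orphan carrier from an imprinted region, was at 190 CPM in Tumor kidney and 409 CPM in WT kidney (-1.11). The organic cation carrier Slc22a2 (OCT2) stayed within 2-fold, with a log2 ratio of -0.89. Per length, Slc22a6 was at 106 RPKM in Tumor kidney and 321 RPKM in WT kidney. The carnitine carrier Slc22a5 was at 355 CPM in Tumor kidney and 323 CPM in WT kidney.

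A cluster of related Slc22 genes on chromosome 19 went in both directions. Slc22a30 was at 68.7 CPM in Tumor kidney and 280 CPM in WT kidney (log2 ratio -2.03), and Slc22a28 at 88.7 CPM in Tumor kidney and 268 CPM in WT kidney (-1.59). Slc22a29, which lies between them, was the member of the family that was higher, with 941 counts (21.1 CPM) in Tumor kidney and 163 counts (3.85 CPM) in WT kidney, a 5.49-fold difference (interval 4.65 to 6.53). Slc22a19 and Slc22a26 of the same cluster differed little, with log2 ratios of -0.02 and -0.25, and Slc22a27 stayed under the minimum with 48 counts in Tumor kidney and 7 in WT kidney. These genes are close copies: over the aligned part, the longest coding transcripts of Slc22a28 and Slc22a30 were 91.8% identical, those of Slc22a28 and Slc22a29 88.7%, and those of Slc22a27 and Slc22a29 96.8%. How reads matching several copies were counted is not given in the sources used here, so the split between them is uncertain.

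The promoters of 3 cluster genes are shown, chosen after their values were seen. Those of Slc22a28 and Slc22a30 share nearly the same sequence, and that of Slc22a29 departs from it. Over 300 bases, 250 before and 50 after the start site, Slc22a28 and Slc22a30 were 94.1% identical, and Slc22a29 was 68.0% identical to Slc22a28 and 68.1% to Slc22a30. The promoters of the other cluster genes were less like this pair: that of Slc22a19 was 63.5% identical to Slc22a28 and 64.1% to Slc22a30, that of Slc22a26 53.3% and 54.9%, and that of Slc22a27 49.3% and 49.6%. The promoters of Slc22a6, which was lower, and of Slc34a1, the most abundant carrier, are given beside them. Sequences are from RefSeq on GRCm38.p6 (the same build as mm10), read 5′ to 3′ on the gene's strand. Capitals mark each match, on either strand, to GTTAAT, a half-site of the tubule factor HNF1, or to CAAAGTCC, a site of the factor HNF4.
Slc22a28, chr19:8131933-8132232, strand minus: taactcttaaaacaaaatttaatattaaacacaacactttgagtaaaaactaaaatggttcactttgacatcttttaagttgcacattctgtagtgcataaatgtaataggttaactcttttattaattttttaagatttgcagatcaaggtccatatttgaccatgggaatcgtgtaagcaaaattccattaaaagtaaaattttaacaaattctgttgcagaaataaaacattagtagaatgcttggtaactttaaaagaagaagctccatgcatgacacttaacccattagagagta
Slc22a29, chr19:8218851-8219150, strand minus: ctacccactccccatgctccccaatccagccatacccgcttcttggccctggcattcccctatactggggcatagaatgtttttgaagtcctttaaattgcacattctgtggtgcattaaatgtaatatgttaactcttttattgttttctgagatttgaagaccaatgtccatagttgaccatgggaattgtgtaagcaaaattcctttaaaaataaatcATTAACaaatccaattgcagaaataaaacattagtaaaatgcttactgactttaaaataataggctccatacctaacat
Slc22a30, chr19:8405056-8405355, strand minus: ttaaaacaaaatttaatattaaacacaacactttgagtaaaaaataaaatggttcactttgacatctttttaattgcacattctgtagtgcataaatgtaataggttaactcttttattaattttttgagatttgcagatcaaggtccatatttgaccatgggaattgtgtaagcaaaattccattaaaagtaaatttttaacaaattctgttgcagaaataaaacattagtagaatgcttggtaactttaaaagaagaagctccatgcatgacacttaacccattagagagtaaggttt
Slc22a6, chr19:8617746-8618045, strand plus: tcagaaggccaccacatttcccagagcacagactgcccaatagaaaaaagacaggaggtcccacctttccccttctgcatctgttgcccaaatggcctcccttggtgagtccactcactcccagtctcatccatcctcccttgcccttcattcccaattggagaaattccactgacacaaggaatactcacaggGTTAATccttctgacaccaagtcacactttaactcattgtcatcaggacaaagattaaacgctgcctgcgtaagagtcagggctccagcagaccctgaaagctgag
Slc34a1, chr13:55399398-55399697, strand plus: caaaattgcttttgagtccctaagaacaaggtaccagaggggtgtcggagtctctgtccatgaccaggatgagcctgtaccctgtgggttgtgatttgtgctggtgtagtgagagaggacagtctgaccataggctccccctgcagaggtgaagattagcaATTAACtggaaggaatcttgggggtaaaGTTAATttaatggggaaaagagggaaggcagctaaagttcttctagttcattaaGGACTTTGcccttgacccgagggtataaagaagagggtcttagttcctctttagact

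The Slc22a29 promoter held 1 GTTAAT match, which began 29 bases before the start site, in a stretch where Slc22a28 and Slc22a30 had none. In Slc22a6 the match began 56 bases before the start site. Slc34a1 held 2 GTTAAT matches, 89 and 61 bases before the start site, and 1 CAAAGTCC match 7 bases before it. GTTAAT was found in 7.13% of the 32544 distinct mouse promoters of the table and in 9.82% of the 112 promoters of the 83 carrier rows that have an entry there. CAAAGTCC was found in 1.43% of all promoters and in 1.79% of those of the carrier rows. These matches describe letters in a window, and both the lower Slc22a6 and the higher Slc22a29 held a GTTAAT match. Any link of promoter sequence to the kidney ratios was not tested. The messenger RNA of the genes coding for tubule transcription factors stayed mostly within 2-fold: 1 of 13 measured was lower, Hnf4g, at 6.33 CPM in Tumor kidney and 16.9 CPM in WT kidney, and none was higher.

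Among the Slco carriers, which move bile acids, steroid conjugates and thyroid hormone, 2 of 7 measured members were lower and 1 was higher, with a median log2 ratio of -0.20. Slco1a1 (chromosome 6, 141907282 to 141946962), a carrier of steroid conjugates, showed the widest difference of all carriers: 1028 counts (23.1 CPM) in Tumor kidney and 20694 counts (488 CPM) in WT kidney. It was 21.2-fold lower in Tumor kidney (interval 19.9 to 22.5). Its relative Slco1a6 was at 92.7 CPM in Tumor kidney and 197 CPM in WT kidney (log2 ratio -1.09). Slco4a1, a thyroid hormone carrier, went the other way, with 51.2 CPM in Tumor kidney and 10.3 CPM in WT kidney (2.32). Slco3a1, with 36.2 RPKM in Tumor kidney and 41.4 RPKM in WT kidney, followed per length, by the mean of both libraries, after Slco1a1, at 5.83 RPKM in Tumor kidney and 123 RPKM in WT kidney, and Slco1a6, at 33.2 RPKM in Tumor kidney and 70.2 RPKM in WT kidney.

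In the Slc7 family, whose members exchange amino acids, 3 of 11 measured members were higher and 1 was lower, with a median log2 ratio of 0.76. Slc7a13 (AGT1), which with its partner subunit takes up cystine and acidic amino acids in the late proximal tubule, had 9295 counts (209 CPM) in Tumor kidney and 52310 counts (1234 CPM) in WT kidney. It was 5.91-fold lower in Tumor kidney (interval 5.79 to 6.05). Slc7a12 (Asc-2), its relative, had 4219 counts (94.7 CPM) in Tumor kidney and 415 counts (9.79 CPM) in WT kidney, and was 9.67-fold higher in Tumor kidney (interval 8.74 to 10.7). These carriers thus lay at opposite ends of the family.

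Slc7a6 (y+LAT2), an exchanger of cationic and neutral amino acids, was at 14.1 CPM in Tumor kidney and 3.78 CPM in WT kidney (log2 ratio 1.90). The row Slc7a6os was at 17.5 CPM in Tumor kidney and 21.4 CPM in WT kidney. Slc7a10 (Asc-1), a serine and glycine exchanger that is also a surface marker of white adipocytes, had 216 counts (4.85 CPM) in Tumor kidney and 44 counts (1.04 CPM) in WT kidney (2.22). The basolateral Slc7a7 (y+LAT1) and the cystine carrier Slc7a9, both with inherited transport disease in humans, stayed within 2-fold, at log2 ratios of 0.67 and 0.78. Per length Slc7a13, Slc7a7 and Slc7a9 led the family by the mean of both libraries, with 98.1, 133 and 64.5 RPKM in Tumor kidney and 577, 83.1 and 37.4 RPKM in WT kidney.

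In the Slc6 family 3 of 12 measured members were higher and none was lower, with a median log2 ratio of 0.31. Slc6a12 (BGT1), which takes up betaine as an osmolyte in the renal medulla, had 502 counts (11.3 CPM) in Tumor kidney and 56 counts (1.32 CPM) in WT kidney, an 8.53-fold difference (interval 6.46 to 11.5). Its chromosome 6 neighbour Slc6a13 (GAT2), a carrier of GABA and betaine, was at 83.2 CPM in Tumor kidney and 39.4 CPM in WT kidney (1.08). Slc6a17, a neutral amino acid carrier best known from synaptic vesicles, was at 31.1 CPM in Tumor kidney and 15.3 CPM in WT kidney (1.02). The brush border carriers of neutral amino acids differed in sign within 2-fold: Slc6a18 was at 883 CPM in Tumor kidney and 541 CPM in WT kidney, and Slc6a19 at 182 CPM in Tumor kidney and 278 CPM in WT kidney. By the mean of both libraries Slc6a18, Slc6a6 and Slc6a19 led per length, with 201, 119 and 74.6 RPKM in Tumor kidney and 123, 72.5 and 114 RPKM in WT kidney.

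Slc6a12, Slc5a3 and Slc6a6, which carry 3 organic osmolytes that tubule cells of the medulla store against high salt, had ratios of 1 sign. Beside Slc6a12 for betaine, Slc5a3 for myo-inositol was at 325 CPM in Tumor kidney and 153 CPM in WT kidney (log2 ratio 1.09), and Slc6a6 for taurine was at 732 CPM in Tumor kidney and 448 CPM in WT kidney (0.71, within 2-fold). This grouping was made after the values were seen. It leaves out Slc5a11, another myo-inositol carrier, which went the other way within 2-fold, at 38.2 CPM in Tumor kidney and 43.5 CPM in WT kidney (-0.19). Slc5a3 lies within the span of Mrps6, a mitochondrial ribosome gene on the same strand, and Mrps6 itself was at 177 CPM in Tumor kidney and 58.1 CPM in WT kidney, so reads of the 2 genes may not be fully separable. Among loop of Henle markers 2 of 8 were higher, with summed 11054 CPM in Tumor kidney and 5912 CPM in WT kidney. Among collecting duct markers 3 of 12 were higher, with 1942 CPM in Tumor kidney and 1108 CPM in WT kidney. The part of cell makeup in these ratios was not tested.

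Sodium-coupled carriers of organic acids and sugars (Slc5) had 2 of 9 measured members higher and 1 lower, with a median log2 ratio of 0.18. The monocarboxylate carriers split: Slc5a12 (SMCT2, low affinity) was at 1823 CPM in Tumor kidney and 731 CPM in WT kidney (1.32), and Slc5a8 (SMCT1, high affinity) at 128 CPM in Tumor kidney and 315 CPM in WT kidney (-1.30). Both reclaim lactate, Slc5a12 in the early and Slc5a8 in the late proximal tubule. The glucose carrier Slc5a2 (SGLT2) of the early tubule was at 386 CPM in Tumor kidney and 493 CPM in WT kidney (-0.35), and Slc5a1 (SGLT1) of the late tubule had a log2 ratio of 0.56. Slc5a12, Slc5a2 and the mannose and fructose carrier Slc5a10 led per length by the mean of both libraries, with 352, 171 and 52.7 RPKM in Tumor kidney and 141, 218 and 46.1 RPKM in WT kidney.

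In the Slc13 family 1 of 5 measured members was higher and none was lower, with a median log2 ratio of -0.19. Slc13a1 (NaS1), which reclaims sulfate, had 64376 counts (1446 CPM) in Tumor kidney and 11560 counts (273 CPM) in WT kidney, and was 5.30-fold higher in Tumor kidney (interval 5.19 to 5.41). Slc13a3 (NaDC3), which takes dicarboxylates from blood, was at 567 CPM in Tumor kidney and 1107 CPM in WT kidney, a log2 ratio of -0.97 that fell just short of 2-fold. Slc13a2 (NaDC1), the citrate carrier of the brush border, was at 52.3 CPM in Tumor kidney and 51.7 CPM in WT kidney. Slc13a1 was the highest of the family per length in Tumor kidney, at 581 RPKM, and Slc13a3 in WT kidney, at 343 RPKM.

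In the Slc17 family 1 of 4 measured members was lower and none was higher. Slc17a3 (NPT4), a urate exporter, was at 263 CPM in Tumor kidney and 655 CPM in WT kidney (log2 ratio -1.31), while the adjacent Slc17a1 (NPT1), another urate carrier, was at 607 CPM in Tumor kidney and 602 CPM in WT kidney (0.01). The lysosomal sialic acid carrier Slc17a5 had a log2 ratio of -0.33. Among phosphate carriers of the Slc34 family 1 of 3 was higher. This was Slc34a2 (NaPi-IIb), the intestinal and lung form, with 1012 counts (22.7 CPM) in Tumor kidney and 220 counts (5.19 CPM) in WT kidney (2.13). Slc34a1 was at 2635 CPM in Tumor kidney and 3537 CPM in WT kidney (-0.42), and Slc34a3 (NaPi-IIc) at 42.9 CPM in Tumor kidney and 54.3 CPM in WT kidney (-0.34). Both main renal forms thus stayed within 2-fold.

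**Figure D3:**
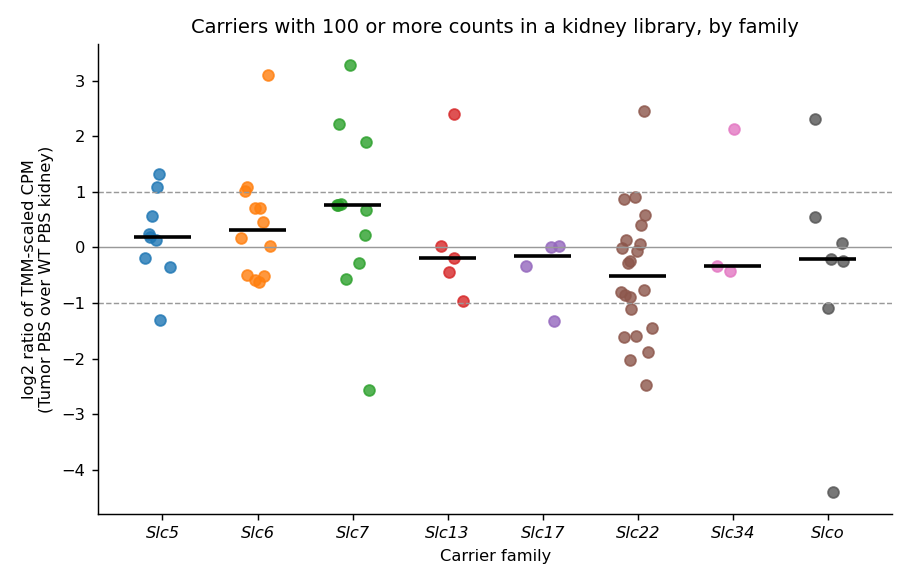
Log2 ratio of TMM-scaled CPM, Tumor PBS over WT PBS kidney, of the 73 carrier rows with 100 or more counts in either library, by family; each point is 1 carrier, bars are family medians, and dashed lines mark 2-fold. The medians run from -0.52 in Slc22 to 0.76 in Slc7, and the points of Slco and Slc7 span the widest range.

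Genes that control phosphate handling had 3 of 14 measured members higher and 1 lower. Cyp27b1, which makes active vitamin D, was at 41.9 CPM in Tumor kidney and 8.76 CPM in WT kidney, and Cyp24a1, which breaks it down, at 34.02 CPM in Tumor kidney and 119 CPM in WT kidney. Among partners and scaffolds of the carriers 1 of 15 was higher, the kinase Sgk1, at 230 CPM in Tumor kidney and 48.4 CPM in WT kidney. Of 34 other tubule carriers 4 were higher and 2 lower, led by the urea carrier Slc14a2, at 106 CPM in Tumor kidney and 14.8 CPM in WT kidney. Amino acid stress genes had 7 of 14 members higher and none lower, among them Nupr1, at 68.8 CPM in Tumor kidney and 10.5 CPM in WT kidney, and Asns, at 11.1 CPM in Tumor kidney and 2.90 CPM in WT kidney.

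Marker genes of other cells differed between the same kidney libraries. Of 21 proximal tubule markers 6 were lower and none was higher, with a summed level of 30456 CPM in Tumor kidney and 62624 CPM in WT kidney, of which Kap gave 2687 CPM and 23771 CPM. Kidney injury genes had 7 of 13 members higher and 21351 CPM in Tumor kidney against 1232 CPM in WT kidney, with Havcr1 at 318 CPM against 36.6 CPM. Adipocyte markers had 9 of 10 members higher, with 1553 CPM in Tumor kidney and 158 CPM in WT kidney, and Slc7a10 is itself known from adipocytes. In mice Slco1a1 and Slc7a13 are known to be higher in male kidney and Slc7a12 in female kidney, and Kap is driven by androgens. Erythroid markers were higher for 5 of 6 measured members, with 3033 CPM in Tumor kidney and 714 CPM in WT kidney. Of 10 neutrophil markers only 3 reached the minimum count in either library, and these 3 were higher. The sum over all 10 was 99.1 CPM in Tumor kidney and 4.93 CPM in WT kidney. With a WT sum this low, markers passed the minimum mostly through the Tumor library, so 3 of 3 was largely set by this filter. Both kidney libraries carried Y-linked Ddx3y, with 1612 counts in Tumor kidney and 2208 in WT kidney, and had 24 and 29 counts of Xist. The part of injury, fat, blood cells, hormones or tubule makeup in the carrier ratios was not tested.

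Most carriers were far higher in kidney than in muscle. In the 2 kidney and 7 muscle libraries, 82 carrier rows were tested with edgeR's quasi-likelihood test. At an adjusted p under 0.05, 67 were higher in kidney, 5 were lower and 10 were not called. The libraries of a tissue served as its replicates although they differ in tumour, genotype and treatment, and these differences add to the spread. The 67 take in Slc13a2os and the pseudogene Slc22a13b-ps, and Slc7a6os was among those not called. Of all 16116 genes, 29.0% were called higher and 22.6% lower in kidney. The median log2 difference, kidney over muscle, was 6.94 for the carriers and 0.03 for all genes. Every tested member of the Slc13 (6) and Slc34 (3) families was higher in kidney, as were 20 of 22 in Slc22, 9 of 10 in Slc5, 12 of 14 in Slc6, 4 of 6 in Slc17, 7 of 12 in Slc7 and 6 of 9 in Slco. The low-count filter before the test keeps a row that passes in the kidney pair alone, such as Slc22a26 with 0 counts in muscle. Rows low in both tissues were dropped, so the shares among tested carriers depend in part on this filter. Tissue and set letter cannot be told apart here, since both kidney libraries and no muscle library are in set A. Scaling by total counts gave 68 higher and 4 lower carriers, and moved the share of higher among all called genes to 73.4%, beside 56.3% with TMM.

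The carriers with the largest kidney excess were close to absent from muscle. Slc22a26 had 728 counts in Tumor kidney and 822 in WT kidney and 0 in all 7 muscle libraries. With the muscle group set to 3 counts its pooled ratio was 814, and the counting interval began at 661. Slc22a19 (OAT5) had 2648 and 2550 counts in Tumor and WT kidney and 3 over all muscle libraries, a pooled ratio of 2728 with a counting interval of 933 to 13234. Slc6a20a, an imino acid carrier, had 1149 and 973 counts in those kidneys and 2 over all muscle libraries (ratio 1671, interval 462 to 13804). The transcript Slc13a2os, with 1002 and 1089 counts in the kidneys and 2 in muscle, gave a ratio of 1646 (interval 455 to 13602). It overlaps Slc13a2 on the other strand, and without a stated strand setting their reads may be mixed. Slc5a12, Slc5a8 and Slc22a22 had log2 differences of 10.78, 10.69 and 10.29, with adjusted p of 2.56e-06, 1e-05 and 1.49e-06 (edgeR).

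**Figure D4:**
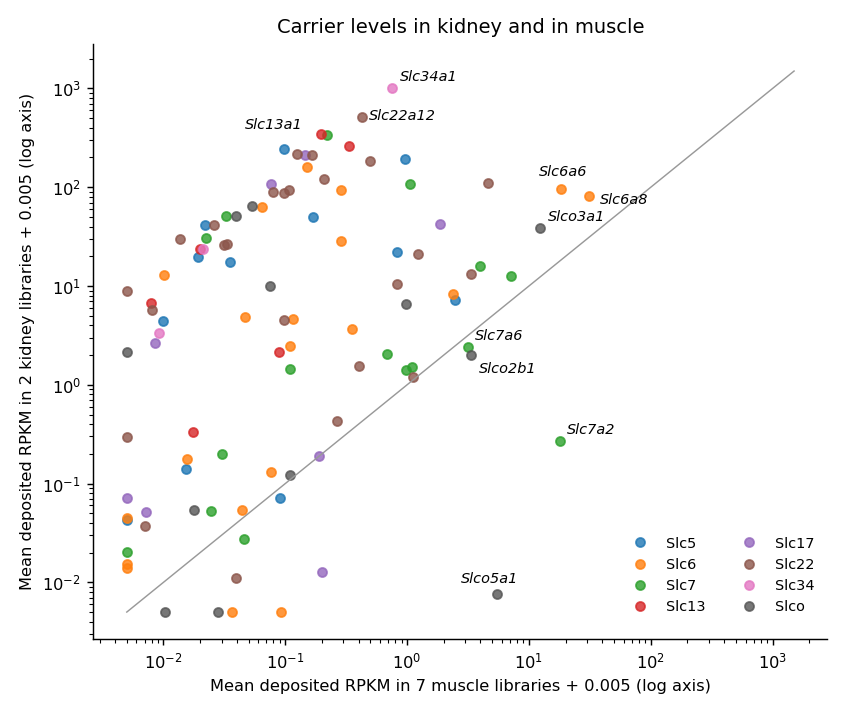
Mean deposited RPKM of each carrier in 2 kidney libraries (vertical) and 7 muscle libraries (horizontal), both plus 0.005 and on log axes, coloured by family, with the line of equal levels. Most carriers lie above the line, Slc6a8 and Slc7a6 close to it, and Slc7a2 and Slco5a1 far below it.

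The carriers lower in kidney were few. Slco5a1, an orphan member of its family, had 2 counts in Tumor kidney and 0 in WT kidney, against 493 to 2889 counts in the muscle libraries, a pooled ratio of muscle over kidney of 2876 (interval 796 to 23749; edgeR adjusted p = 1.77e-05). Slc7a2 (CAT2), a carrier of arginine and lysine, was at 0.249 RPKM in Tumor kidney and 0.282 RPKM in WT kidney, against 8.30 to 24.8 RPKM in muscle. Its log2 difference was -6.56 (edgeR adjusted p = 2.41e-06). Slco2b1, a carrier of steroid sulfates, was at 1.82 RPKM in Tumor kidney and 2.16 RPKM in WT kidney, against 1.66 to 5.39 RPKM in muscle, a log2 difference of -1.22 (edgeR adjusted p = 0.00368). The ranges of Slco2b1 overlapped, those of Slco5a1 and Slc7a2 did not. The vesicular glutamate carrier Slc17a7 was also called lower, but at trace levels, with 2 and 0 counts in Tumor and WT kidney and 9 to 29 per muscle library.

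Muscle carried few members of these families at a level of 1 RPKM or more: 18 of 108 on the mean of 7 libraries, against 72 on the mean of the kidney pair. Summed over all rows the level was 89.7 to 193 RPKM per muscle library. Slc6a8, the creatine carrier, was highest, at 31.0 ± 6.93 RPKM (SD, n = 7), from 23.2 to 40.1 RPKM. Slc6a6, the taurine carrier, followed at 18.2 ± 9.64 RPKM, Slc7a2 at 17.9 ± 6.28 RPKM and Slco3a1, a carrier of prostaglandins and thyroid hormone, at 12.4 ± 5.92 RPKM. The order of Slc6a6, Slc7a2 and Slco3a1 does not stand out from their spread. Slc7a6os was at 7.07 ± 0.70 RPKM, Slco5a1 at 5.45 ± 3.20 RPKM, Slc22a5 at 4.65 ± 1.42 RPKM, and Slc7a8 (LAT2), Slco2b1, Slc22a23, Slc7a6 and the vitamin carrier Slc5a6 lay between 2.49 and 3.96 RPKM.

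Tumor muscle given PBS was compared with WT PBS muscle to see whether the carriers changed in the wasting condition the series title names. By edgeR 0 of 64 carrier rows were called, as were 0.0% of all 15482 genes, with 165 genes and 0 carriers at an unadjusted p under 0.05. The error of this fit, and of the muscle fits below, is the difference within the WT PBS pair, whose libraries lie in different sets and differ in kidney transcripts. A count of 0 therefore does not show that levels were alike. By size, against both WT libraries, 0 of 22 measured carriers were higher or lower, where 1.28% of all genes were higher and 0.611% lower. Slc6a8 was at 95.4 CPM in Tumor PBS muscle and at 116 and 137 CPM in WT PBS muscle. Slc6a6 was at 63.4 CPM in Tumor PBS muscle and at 52.3 and 163 CPM in WT PBS muscle, and Slc7a2 at 146 CPM in Tumor PBS muscle and at 81.7 and 95.9 CPM in WT PBS muscle. Only Slc7a2 of these 3 lay above both WT libraries, by less than 2-fold, with an unadjusted p of 0.273 (edgeR). Against WT PBS muscle 1 alone, the library of the same set, 2 of 20 measured carriers were higher (Slc22a3 and Slco2a1) and 1 was lower (Slc34a1). Against WT PBS muscle 2 alone, 1 of 22 was higher and 8 were lower. The shares of all genes against a single WT library are not given, here or below. These counts therefore cannot be told apart from a general difference between the WT libraries. Neutrophil markers were higher for 10 of 10 members, with 359 CPM in Tumor PBS muscle and 14.3 and 8.67 CPM in WT PBS muscle, and erythroid markers for 5 of 5. Their part in these ratios was not tested.

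Several of the more abundant carriers followed the set letter. Of 26 carrier rows with 100 or more counts in a muscle library, 9 were higher in all 4 set C libraries than in all 3 set B libraries. Another 2 were lower, Slc34a1 and the row Slc7a6os, which is not a carrier. All genes had 17.8% above and 18.7% below. With scaling by total counts 11 rows were higher and only Slc34a1 was lower, and of all 11928 genes 2952 were above and 1269 below. Slc6a6 was at 121 to 163 CPM in set C and 52.3 to 63.4 CPM in set B, and Slco5a1 at 45.5 to 89.5 CPM in set C and 22.7 to 23.5 CPM in set B. Slc7a8 ran from 16.98 to 23.8 CPM in set C and from 7.84 to 12.5 CPM in set B. For these 3 carriers the sets did not overlap, although each set holds a WT PBS library. For the Tumor libraries, the libraries labelled knockout and the WT DKK1 library, group and set cannot be told apart except against the WT library of their own set.

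**Figure D5:**
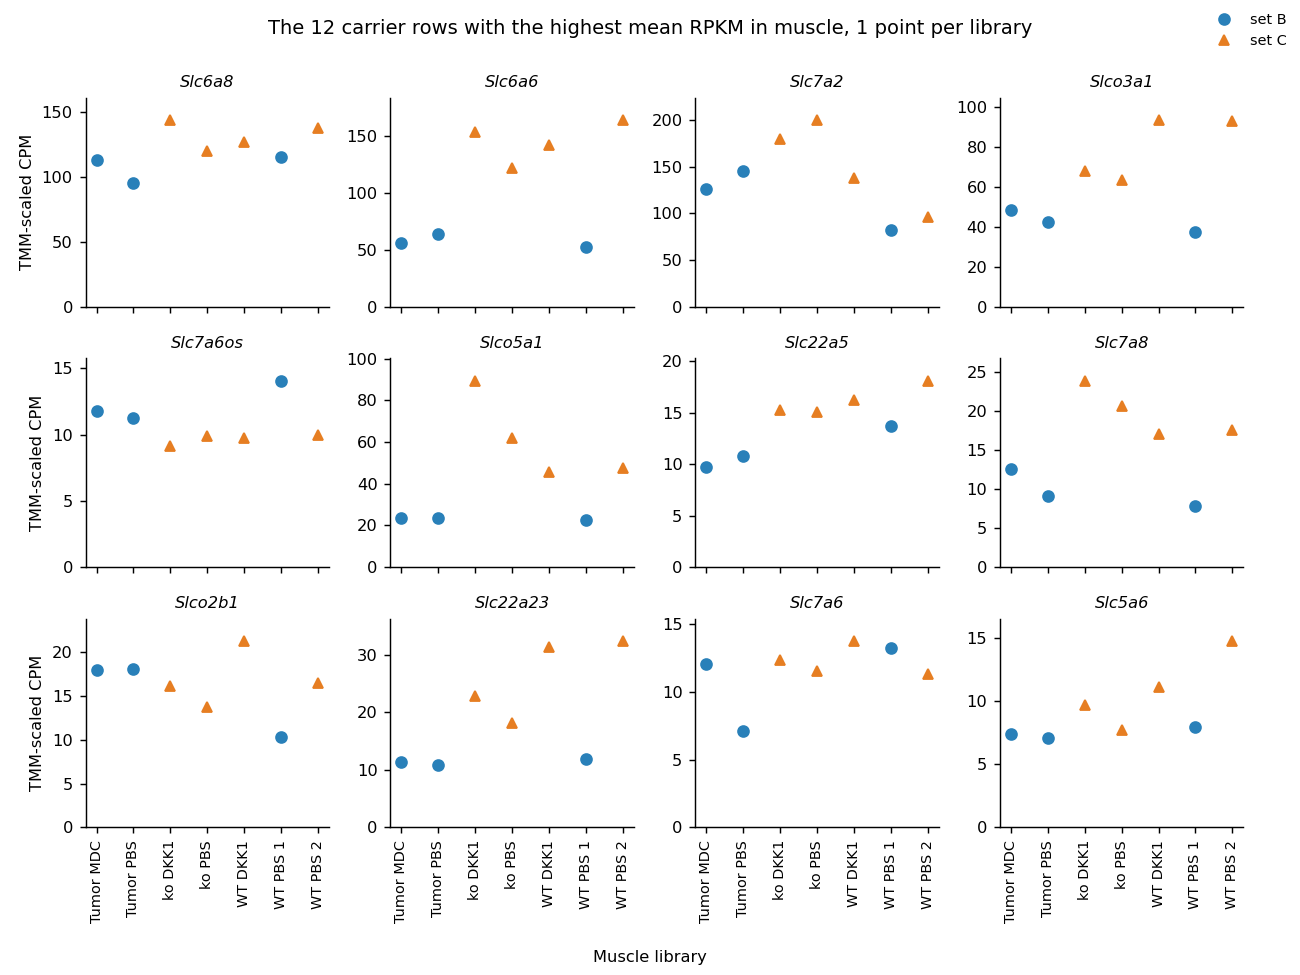
TMM-scaled CPM of the 12 carrier rows with the highest mean RPKM in muscle, 1 point per library, with circles for set B and triangles for set C; axes start at 0. Slc6a8, Slc6a6, Slco3a1, Slco5a1, Slc22a5, Slc7a8 and Slc22a23 show every triangle above every circle, while Slc7a2 is highest in the ko PBS library at 200 CPM.

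MDC was compared with PBS in Tumor muscle. By edgeR 0 of 64 carrier rows were called (0.0% of all genes; 38 genes and 0 carriers at an unadjusted p under 0.05). By size 3 of 20 measured carriers were lower with MDC and none was higher, where 3.53% of all genes were lower and 1.14% higher. Slc5a2 was at 1.39 CPM with MDC and 3.24 CPM with PBS (log2 ratio -1.22), Slco2a1, a prostaglandin carrier, at 3.05 CPM with MDC and 6.43 CPM with PBS (-1.08), and Slc22a3 (OCT3), which clears monoamines, at 1.48 CPM with MDC and 3.07 CPM with PBS (-1.05). All 3 are low in muscle, under 2 RPKM in both libraries. Slc5a2 is abundant in kidney, with 20896 counts in WT kidney. The 47 kidney-abundant carrier rows had a median of 0.0470% of the WT kidney count with MDC and 0.113% with PBS. Proximal tubule markers were lower for 2 of 8, with a sum of 77.8 CPM with MDC and 139 CPM with PBS. Of 10 adipocyte markers 9 were lower, with a sum of 485 CPM with MDC and 958 CPM with PBS, macrophage markers for 5 of 12 and neutrophil markers for 10 of 10. Slow fibre markers were higher for 10 of 10, with 1616 CPM with MDC and 297 CPM with PBS. The part of these markers in these ratios was not tested. Among the abundant carriers Slc6a8 was at 113 CPM with MDC and 95.4 CPM with PBS, and Slc7a6 at 12.02 CPM with MDC and 7.10 CPM with PBS.

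DKK1 was compared with PBS in WT muscle. By edgeR 0 of 64 carrier rows were called (0.0% of all genes; 206 genes and 1 carrier, Slc34a1, at an unadjusted p under 0.05). By size 1 of 25 measured carriers was lower against both WT libraries and none was higher, where 0.464% of all genes were lower and 2.4% higher. This was Slc34a1, at 0.391 CPM (15 counts) with DKK1 and at 9.73 CPM (211 counts) and 1.33 CPM (30 counts) with PBS. Slc34a1 is the carrier with most counts in kidney, and the PBS library in which it was highest is WT PBS muscle 1, which held more of other kidney transcripts too. Against WT PBS muscle 2 alone, in the same set as the DKK1 library, 0 of 24 measured carriers were past the size rule. Against WT PBS muscle 1 alone 13 of 25 were higher and 1 was lower, with no share of all genes given. Slc6a8 was at 126 CPM, Slc6a6 at 141 CPM and Slc7a2 at 138 CPM with DKK1, against 137, 163 and 95.9 CPM in WT PBS muscle 2. Erythroid markers were higher for 5 of 5 and Schwann cell markers for 6 of 8 in the DKK1 library, and their part was not tested.

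The library labelled knockout PBS was compared with WT PBS muscle. By edgeR 0 of 64 carrier rows were called (0.0% of all genes; 182 genes and 1 carrier, Slc22a3, at an unadjusted p under 0.05). By size 1 of 20 measured carriers was higher and none was lower, where 0.754% of all genes were higher and 1.09% lower. Slc7a2 had 200 CPM in that library and 81.7 and 95.9 CPM in WT PBS muscle, log2 ratios of 1.29 and 1.06. With scaling by total counts these ratios were 1.58 and 0.95, so that it no longer passed against both libraries. Against WT PBS muscle 2 alone, of the same set, Slc7a2 was higher and 3 carriers were lower (Slc22a3, Slc7a1 and Slc7a5), of 19 measured. Against WT PBS muscle 1 alone 4 of 16 were higher and 1 was lower, again with no share of all genes given. Adipocyte markers were lower for 6 of 10, with a sum of 141 CPM in that library against 302 and 1249 CPM in WT PBS muscle, and their part was not tested. The edgeR log2 change of Slc7a2 was 1.18, with an unadjusted p of 0.0877. Slc7a2 was also above both WT PBS libraries in the other 4 muscle libraries, with 126 to 180 CPM.

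DKK1 was compared with PBS in the libraries labelled knockout. By edgeR 0 of 64 carrier rows were called (0.0% of all genes; 48 genes and 0 carriers at an unadjusted p under 0.05). By size 2 of 18 measured carriers were higher with DKK1 and none was lower, where 2.41% of all genes were higher and 0.655% lower. Slc7a5 (LAT1), the leucine exchanger, was at 3.53 CPM with DKK1 and 1.40 CPM with PBS (log2 ratio 1.33, ratio interval 1.70 to 3.81). Slco2a1 was at 4.09 CPM with DKK1 and 1.81 CPM with PBS (1.17). Both are low in muscle, and slow fibre genes were higher for 10 of 10 members in the same DKK1 library, with 6649 CPM beside 179 CPM with PBS. Erythroid markers were higher for 5 of 5, and the part of either was not tested. Whether DKK1 acted differently in the libraries labelled knockout and in WT muscle was tested as an interaction in the edgeR fit, which called 0 of 64 carrier rows, with 44 genes and 0 carriers at an unadjusted p under 0.05.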

How the data were processed

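The deposited tables hold raw counts per gene, not normalized by the authors, and RPKM, which the authors computed from them. Recomputed RPKM deviated by at most 0.000495% for genes with 100 or more counts. Reads were aligned with HISAT2 2.1.0 to mm10, per the submitters' processing notes. The counting program, annotation, strand setting and handling of multiply aligned reads remain not given in the sources used here. Members and gene lists were chosen with earlier results of these data known.

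Counts were scaled by TMM within a tissue (edgeR 4.0.16, R 4.3.3). For single libraries, untested, carriers were counted by size at 2-fold or more with 100 or more counts in the higher one, in muscle against each WT library. Intervals and floors of 3 counts cover counting error only. Kidney against muscle was fitted with tissue as the only factor, and the 7 muscle libraries with 1 coefficient per group. Both fits used edgeR's quasi-likelihood test after filterByExpr (minimum count 10, leaving 16116 and 15482 genes), with Benjamini-Hochberg adjustment. In muscle the 1 residual degree of freedom comes from the WT pair, whose spread, a difference between sets B and C included, then stands for every group. Scripts were checked on simulated data, and DESeq2 1.42.0 and limma 3.58.1 were alternatives.

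Named were carriers past the size rule, the 3 highest per family by kidney RPKM, the 12 highest in muscle, the 8 largest tissue differences each way and up to 2 genes per direction from each list. Others, such as cluster neighbours, were chosen after their values were seen. Some carriers that this rule picks are not reported here. Positions are from GENCODE M21, promoters from RefSeq, and identities from pairwise alignment.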

Additional observations from a re-analysis of the deposited data

How the results depend on the processing

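In kidney, a limit of 1.5-fold gave 21 higher and 19 lower carriers, beside 12 and 12 at 2-fold. The shares of all genes at 1.5-fold are not given, so these counts cannot be set against a general rate. Scaling by total counts or DESeq2 size factors, or a minimum of 30 counts, kept both 2-fold counts within 1.5 times. For kidney against muscle, DESeq2 called 67 higher and 5 lower, limma-voom 67 and 6, and a fit without the low-count filter 71 and 6. WT PBS libraries alone gave 50 higher and 2 lower, all of them among the 67 and 5, and leaving out each library gave 61 to 67 higher and 5 to 6 lower. In muscle the size counts move with the WT library. With 1 of the WT libraries left out they ran from 3 to 9 (Tumor PBS), 0 to 14 (DKK1) and 4 to 5 (labelled knockout PBS), beside 0, 1 and 1 with both. Shares of all genes are not given for these counts, nor for the muscle size counts that follow. A minimum of 30 counts gave 1 for Tumor PBS, 6 for MDC (3 at 100 counts), 7 for DKK1 and 3 for labelled knockout PBS. Scaling by total counts gave 2 for DKK1 and 0 for labelled knockout PBS. It moved the median log2 ratio of all genes most in DKK1 against WT PBS muscle 1, to 0.71 from 0.04 with TMM. The cause of these moves was not tested. Of the log2 ratios of single carriers 31 stayed within their 95% counting intervals under scaling by total counts, and 2, both Slc7a2, moved to 1.58 and 0.95. This scaling shifts every ratio of a library pair by the same amount, so the count of 31 is no separate check of each carrier. The intervals are wide at low counts (Slc34a1 with DKK1 against WT PBS muscle 1 was at -3.98, beside -4.64). The muscle calls of 0 carriers stayed at 0 with DESeq2, limma-voom, total counts and no filter. Single libraries limit what can be said of any treatment, and carriers under 100 counts were not compared by size. No paired analysis was possible because the groups compared share only replicate number 1. The set letters in the table names gave the comparisons within a set, and a muscle fit with set beside group has no residual degrees of freedom.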
